A study of Mus musculus with 15 samples.

Results

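The respiratory chain subunits were described across inflamed and polypoid mouse colon, with and without 5-aminosalicylic acid (5-ASA), a drug known for its use against ulcerative colitis. The genes were taken by name, as nuclear genes whose current symbol begins with Nduf and a subunit letter and number, Uqcr, Cox4 to Cox8 or Atp5, or is Sdha to Sdhd, Cyc1 or Cycs. The rule took 121 of 41174 probes, for 85 of 27389 gene names on the array. Cox8c was left out as too dim, being well above background on 2 of the 15 arrays. The other 84 genes comprised 36 of complex I, 4 of complex II, 9 of complex III, cytochrome c itself, 17 of complex IV and 17 of complex V. The mitochondrially encoded subunits do not match these names and were not analysed here.

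All 8 animals were female Swiss Webster mice that received the carcinogen azoxymethane (7.4 mg/kg) and then 3 cycles of 4% dextran sulfate sodium (DSS), each of 7 days followed by 21 days of water. They were 7 weeks old at the start, 9 weeks at the first DSS and 18 weeks at the end. The treated arm received 5-ASA at 75 mg/kg from the azoxymethane on and the untreated arm received vehicle, so that a colon without carcinogen and DSS was not part of the comparison. Inflamed or polypoid areas were laser-captured from frozen sections, and each animal supplied 1 kind of area, which gave 2 untreated inflamed, 2 treated inflamed, 2 untreated polypoid and 2 treated polypoid samples. The RNA was amplified in 2 rounds and hybridised on 2-colour arrays beside a universal mouse reference RNA. A value is therefore log2 of sample over reference for 1 gene, which cannot be set against another gene's value. Replicates are separate animals, and 2 animals a group limit the precision.

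The respiratory chain passes electrons from NADH (complex I) and succinate (complex II) through ubiquinone to complex III, by cytochrome c to complex IV and on to oxygen, and complex V (ATP synthase) uses the proton gradient this builds to make ATP. Most of its subunits are encoded in the nucleus, and factors such as NRF1, GABPA, YY1 and the oestrogen-related receptors are known to bind the promoters of many of them. Mature colonocytes are known for their use of butyrate through mitochondrial fatty acid oxidation, which feeds this chain.

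Promoters in RefSeq (GRCm38.p6; 250 bases before to 50 bases from the transcript start on) were at hand for 69 of the 84 genes and 27025 genes in all. Each was searched on both strands for GCATGCGC (the NRF1 motif), CTTCCGG (ETS factors such as GABPA), AAGATGGC (YY1) and TCAAGGTCA (oestrogen-related receptors). None of these strings contains another, and GCATGCGC can match both strands of 1 site. Of the 69 genes, 33 held at least 1 of the 4 strings (47.8%, against 15.3% of all genes with a promoter). NRF1's string stood in 11 of the 69 genes (15.9%, against 3.05% of all genes), that of ETS factors in 17 (24.6% against 9.93%), that of YY1 in 10 (14.5% against 3.19%) and that of the oestrogen-related receptors in 2 (2.9% against 0.47%). Of the 8 genes with a promoter among the 9 that passed as lower in polypoid tissue, 3 held the YY1 string and none held another; base composition was not matched. Shown here are those 3 YY1 matches, the NRF1 matches of Uqcrc1 and Sdhb, which did not pass, and the 100 bases before the start of Ndufa4. Ndufa4 went furthest the other way, likewise without passing, and held none of the 4 strings. Capitals mark the matched letters, and in Uqcrc1 they cover overlapping matches on both strands.
Ndufs7 (chr10:80249462-80249491, plus strand): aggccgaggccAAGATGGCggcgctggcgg
Ndufb8 (chr19:44555393-44555422, minus strand): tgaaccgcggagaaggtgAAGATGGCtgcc
Ndufa9 (chr6:126849097-126849126, minus strand): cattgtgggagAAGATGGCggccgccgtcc
Uqcrc1 (chr9:108936667-108936696, plus strand): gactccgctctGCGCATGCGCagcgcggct
Sdhb (chr4:140961171-140961270, plus strand): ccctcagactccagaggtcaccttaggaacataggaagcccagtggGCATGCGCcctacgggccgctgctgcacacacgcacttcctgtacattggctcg
Ndufa4 (chr6:11907451-11907550, minus strand): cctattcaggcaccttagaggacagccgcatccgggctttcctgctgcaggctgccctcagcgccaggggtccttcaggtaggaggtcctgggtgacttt
The YY1 and Uqcrc1 stretches lie just after the transcript start and that of Sdhb just before it. A match is a string of letters, not a measured binding site.

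The arrays had a median sample intensity of 148.6 to 257.2 scanner units over a local background of 41 to 63. Treated inflamed replicate 2 had 1 array and the lowest share of spots well above background (57.4%); the other 7 animals had a dye-swapped pair. Epithelial markers (Epcam, keratins and others, 8 measured) averaged between 2.77 and 3.50 log2 over the reference in all 8 samples. The arrays were scanned in 4 sessions: untreated and treated inflamed replicate 1 in the first, untreated and treated polypoid replicate 1 in the second, untreated inflamed 2, untreated polypoid 2 and treated polypoid 2 in the third, and treated inflamed 2 alone in the fourth. Brightness also set a limit: 28 of the 84 genes were saturated on at least 1 array, which understates their differences.

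The first comparison set polypoid against inflamed tissue. With both arms pooled, the medians of the respiratory chain genes lay lower in polypoid tissue in all 5 complexes. The median difference was -0.38 log2 over the 84 genes against -0.015 over the 21303 genes tested. The test was passed by 9 genes, all lower: Ndufb10, Ndufa13, Ndufs7, Ndufb9, Ndufb8 and Ndufa9 of complex I, Uqcr10 of complex III, and Cox7a1 and Cox7a2 of complex IV. They were 9 of 84 genes (10.7%), where 1.97% of all genes tested were lower and 3.97% higher at the same threshold (limma, adjusted p under 0.05). Respiratory chain genes are bright, and bright genes passed more often: of the 56 members with a mean sample intensity of at least 10000 scanner units, 7 were lower (12.5%), against 61 of 1054 other genes as bright (5.79%). The medians of these 2 sets were -0.39 and 0.056. A negative difference was found in 71 of the 84 genes (84.5%, against 52.7% of all genes), and 34 were lower at an unadjusted p under 0.05 (40.5%, against 9.72%). At that level 2 genes were higher, Ndufa4 and Ndufs8 (2.38%, against 13.5%). The 71 negative genes include Atp5b and Atp5g3, whose brightest probes were saturated on 14 of the 15 arrays. With probes saturated on no array, 53 of 65 genes had negative differences. The 9 genes that passed were lower by 1.56-fold (Ndufa13) to 2.15-fold (Cox7a1).

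Which genes passed changed when any 1 of the 8 animals was left out. Some of the 9 were lost each time, and other genes passed in some of these fits. The count of 9 depended on 6 of the 8 animals. Without untreated inflamed replicate 2 it was 5, without treated inflamed replicate 1 it was 0, without treated inflamed replicate 2 it was 1, without untreated polypoid replicate 2 it was 3 and without treated polypoid replicate 1 it was 1. Without treated polypoid replicate 2 it was 1, and that gene was Ndufa4, now higher. With the scan session as a term the count was 0, and no gene on the array passed (smallest adjusted p 0.334 in limma). That fit left 1 residual degree of freedom, against 4 in the main fit, so its 0 cannot decide whether the genes differ. All 9 genes stayed lower in polypoid tissue in each of these fits, and the median over the respiratory chain genes ran from -0.42 to -0.31 in all 19 alternatives. Some alternatives covered other numbers of these genes, from 63 with a value in the deposited table to 85 without the filter on dim probes. The third session was the only one that held both tissues. Its 2 polypoid samples lay at a median of -0.39 from its inflamed sample, against -0.014 over all genes. That inflamed sample was untreated and the polypoid samples were a treated and an untreated one, so the drug enters this value. The untreated polypoid sample alone lay at -0.24 from the untreated inflamed sample, against -0.038 over all genes.

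**Figure D1:**
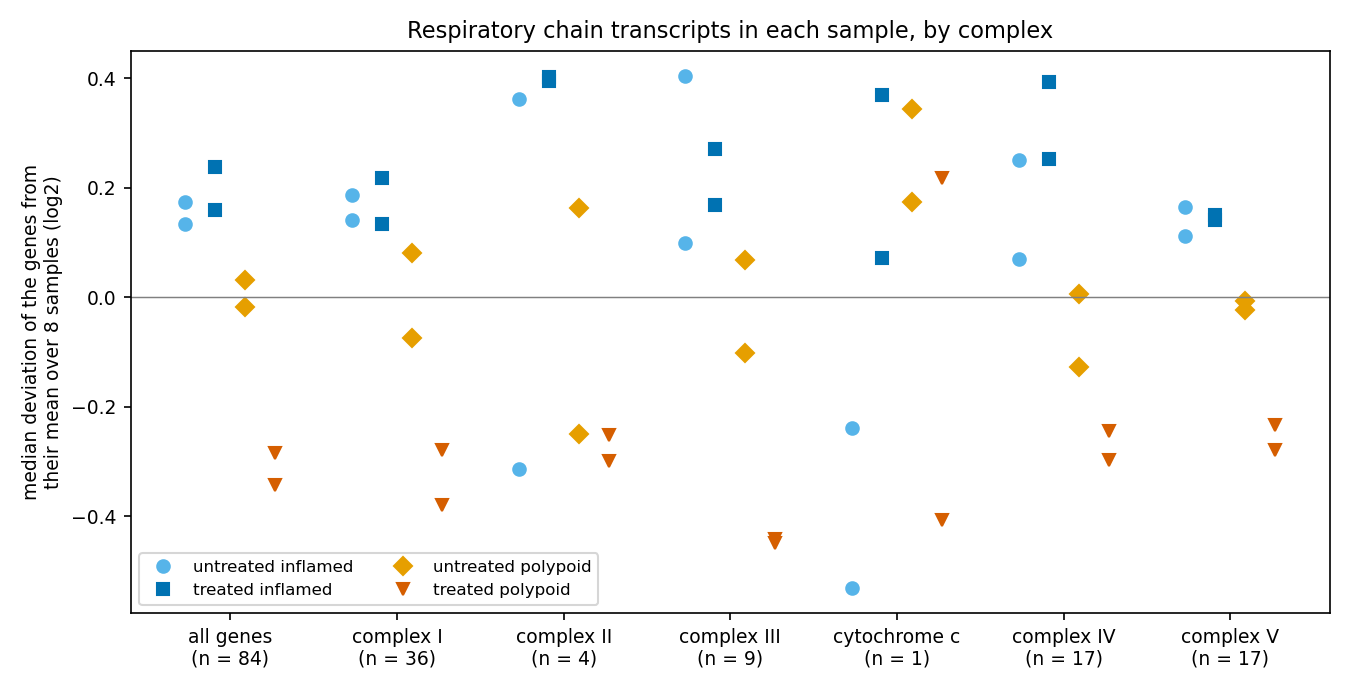
Median deviation of the genes of each complex from their own mean over the 8 samples (y axis, log2), for all 84 genes and by complex (x axis, number of genes below); each symbol is 1 sample. Over all genes the 4 inflamed samples sit at 0.13 to 0.24, the untreated polypoid samples at 0.032 and -0.018 and the treated polypoid samples at -0.29 and -0.34; in complex II and for cytochrome c untreated inflamed replicate 2 lies low.

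By complex, the median difference was -0.37 for complex I (28 of 36 genes negative), -0.41 for complex II (4 of 4), -0.44 for complex III (9 of 9), -0.43 for complex IV (14 of 17) and -0.28 for complex V (16 of 17). The 16 of complex V include Atp5b and Atp5g3, whose saturated probes leave their signs uncertain. Complex II came to -0.26 without untreated inflamed replicate 1, and complex V to -0.17 without untreated polypoid replicate 1. Within the third scan session the polypoid samples lay at -0.33 (I), -0.051 (II), -0.64 (III), -0.51 (IV) and -0.15 (V) from the inflamed sample. For complex II the untreated polypoid sample alone lay at 0.061 from it. Cycs, the single somatic cytochrome c gene, lay at 0.16 ± 0.17 (SE). In the plot of medians by complex, the order of the samples was the same in complexes I, III, IV and V: treated polypoid lowest, untreated polypoid between, inflamed highest. In complex II untreated inflamed replicate 2 was the lowest of the 8 samples, at -0.31, while the other inflamed samples lay at 0.36 to 0.40. Every polypoid sample lay below every inflamed sample for 17 genes (20.2%, against 7.90% of all genes): 8 of complex I, 2 of complex III, 4 of complex IV and 3 of complex V. The reverse held for Ndufa4 alone (1.19%, against 8.37%).

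**Figure D2:**
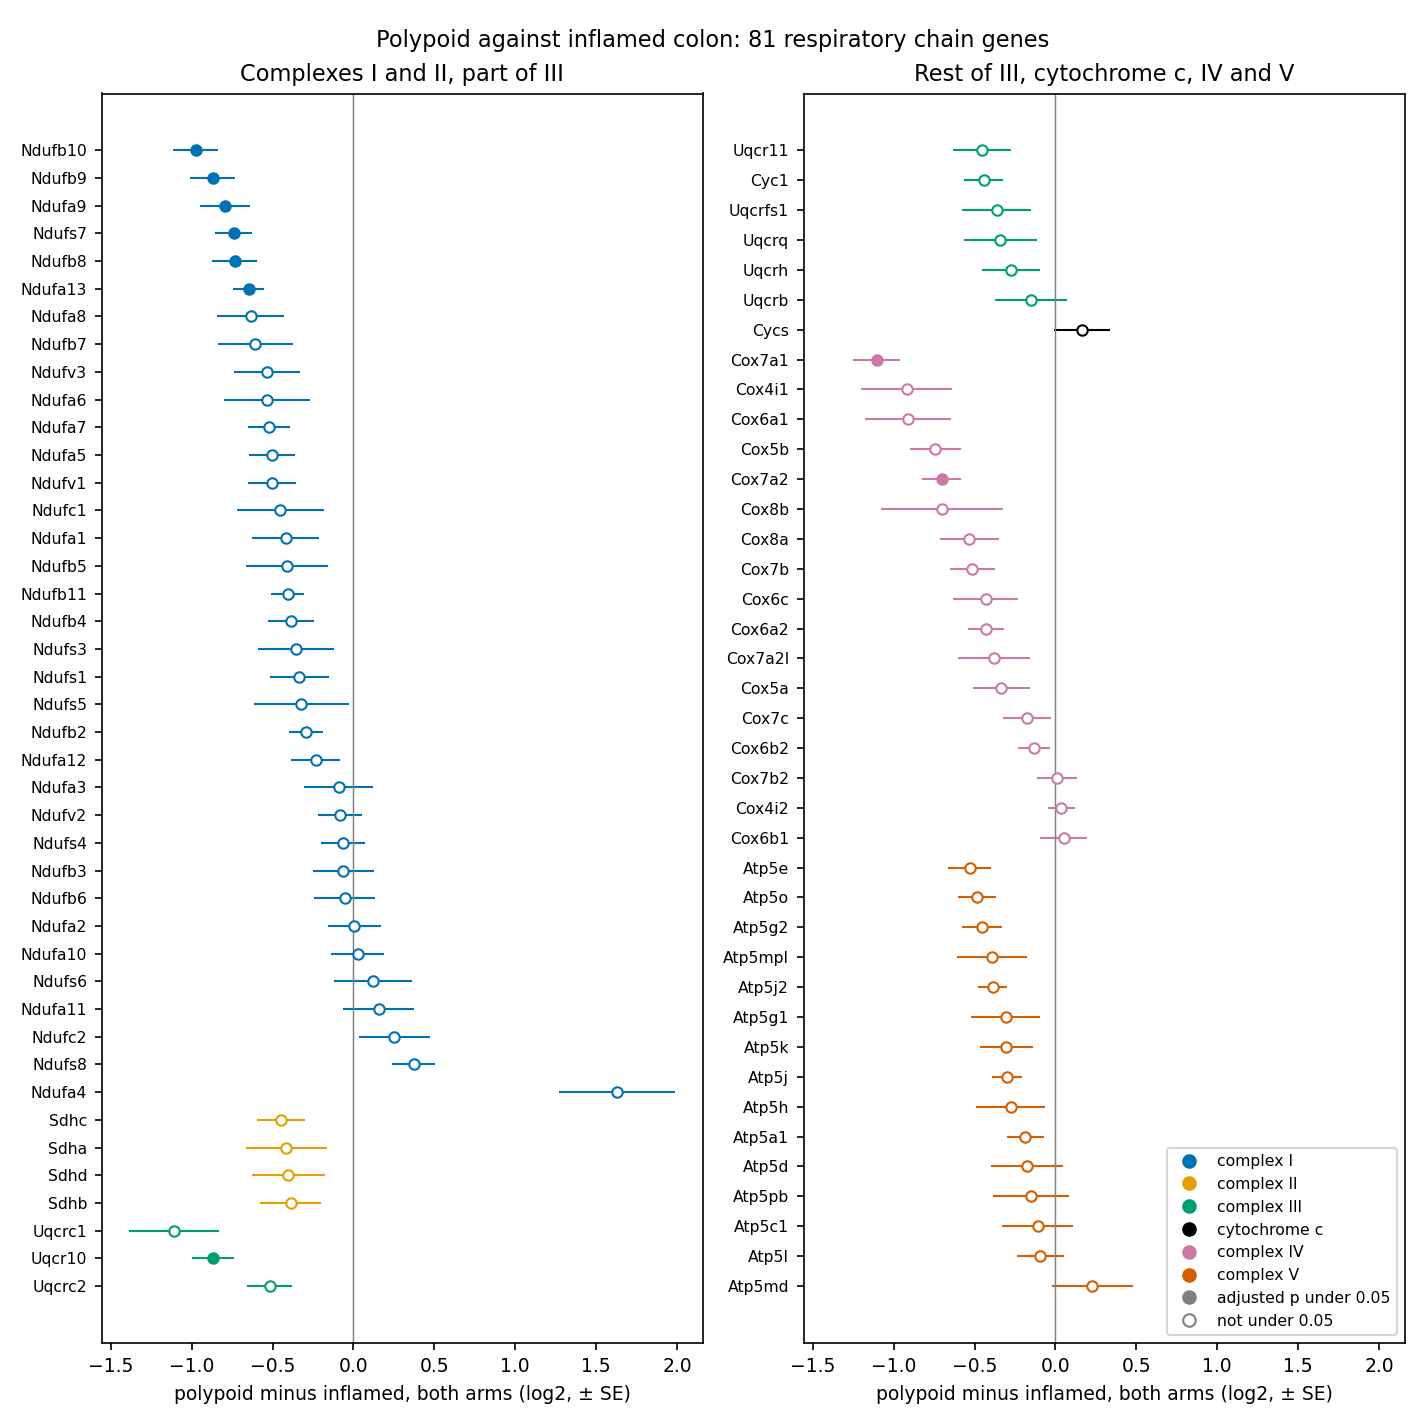
Difference of polypoid minus inflamed tissue in both arms (x axis, log2; bars, SE of the fit with 4 samples a side) for 81 of the 84 genes, grouped and coloured by complex; filled symbols passed an adjusted p under 0.05. Most symbols lie left of 0, the 9 filled ones between -1.11 and -0.65, and Ndufa4 stands alone at 1.63.

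Complex I, which takes electrons from NADH, held 6 of the 9 genes. Ndufb10, an accessory subunit of the membrane arm, read 1.47 and 1.64 in untreated inflamed, 1.12 and 0.88 in treated inflamed, 0.92 and 0.52 in untreated polypoid and 0.0063 and -0.24 in treated polypoid samples. The treated polypoid samples were lowest, and untreated polypoid replicate 1 overlapped treated inflamed replicate 2; the difference was -0.98 ± 0.14 (SE; limma, adjusted p = 0.0184). Ndufa13, also known as GRIM-19 and another membrane arm subunit, read 0.92 and 0.95 in untreated inflamed, 0.94 and 1.12 in treated inflamed, 0.68 and 0.75 in untreated polypoid and 0.047 and -0.13 in treated polypoid samples. Its tissues did not overlap, and the difference was -0.65 ± 0.10 (adjusted p = 0.0208, limma). Ndufb9 and Ndufb8, further accessory subunits of that arm, differed by -0.87 ± 0.14 and -0.73 ± 0.14 (limma, adjusted p = 0.0248 and 0.036), again with no overlap between tissues. Ndufb9 read 1.14 and 1.51 in untreated inflamed, 1.28 and 1.36 in treated inflamed, 0.94 and 0.54 in untreated polypoid and 0.11 and 0.22 in treated polypoid samples. Ndufb8 read 0.78 and 1.04 in untreated inflamed, 0.81 and 0.92 in treated inflamed, 0.67 and 0.38 in untreated polypoid and -0.033 and -0.40 in treated polypoid samples. For both genes the treated polypoid pair stood apart at the low end, below the untreated polypoid pair.

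Ndufs7 and Ndufa9 belong to the part of complex I that hands electrons to ubiquinone. Ndufs7, a core iron-sulphur subunit, read 0.95 and 1.06 in untreated inflamed, 0.59 and 0.88 in treated inflamed, 0.48 and 0.74 in untreated polypoid and -0.34 and -0.35 in treated polypoid samples. It differed by -0.74 ± 0.11 (limma, adjusted p = 0.0226), and untreated polypoid replicate 2 overlapped treated inflamed replicate 1. Ndufa9, an accessory subunit, read 0.58 and 1.23 in untreated inflamed, 0.37 and 0.38 in treated inflamed, 0.065 and 0.13 in untreated polypoid and -0.39 and -0.43 in treated polypoid samples. It differed by -0.79 ± 0.15 (limma, adjusted p = 0.0399) with no overlap; its inflamed samples spread widely, with untreated inflamed replicate 2 highest. Of the other core subunits none passed. Ndufv1, which binds NADH, differed by -0.50 ± 0.15; the iron-sulphur subunits Ndufs1 and Ndufv2 by -0.33 ± 0.18 and -0.083 ± 0.14; Ndufs3 by -0.35 ± 0.24. Ndufs8, which carries iron-sulphur clusters next to Ndufs7, lay on the other side at 0.37 ± 0.13 (limma, adjusted p = 0.168). Ndufs4, an accessory subunit of the NADH-binding part, differed by -0.065 ± 0.13.

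Ndufa4 was counted here by its name, although its protein is now regarded as a subunit of complex IV. It read -1.04 and -1.05 in untreated inflamed, -1.05 and -0.10 in treated inflamed, 0.81 and 1.18 in untreated polypoid and 1.35 and -0.053 in treated polypoid samples. All 4 polypoid samples lay above all 4 inflamed samples, but treated inflamed replicate 2 and treated polypoid replicate 2 lay side by side, apart from the rest of their groups. The difference was 1.63 ± 0.36, the largest of the 84 genes in either direction, and missed the threshold (limma, adjusted p = 0.0555). Its adjusted p ran from 0.0273 to 0.431 (limma) over the 18 alternatives that gave it a value, with 5 under the threshold, and the difference from 1.28 to 1.98. The gene had a single probe, saturated on 1 polypoid array.

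Complex II, which oxidises succinate in the citric acid cycle, had no gene that passed. Sdhc, a membrane anchor, read 0.69 and 0.11 in untreated inflamed, 0.66 and 0.55 in treated inflamed, 0.034 and 0.065 in untreated polypoid and 0.12 and -0.0077 in treated polypoid samples. Sdhb, the iron-sulphur subunit, read 0.45 and 0.20 in untreated inflamed, 0.76 and 0.95 in treated inflamed, 0.85 and 0.16 in untreated polypoid and -0.29 and 0.083 in treated polypoid samples. Sdhc differed by -0.45 ± 0.15, Sdha (the flavoprotein) by -0.41 ± 0.25, Sdhd (the other anchor) by -0.40 ± 0.22 and Sdhb by -0.39 ± 0.19. The polypoid and inflamed samples overlapped for all 4 genes, with untreated inflamed replicate 2 reading low for each: -0.21 for Sdha, where the other inflamed samples read 0.68 to 1.02.

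In complex III, which passes electrons to cytochrome c, all 9 genes had negative differences and Uqcr10 passed. Uqcr10, a small subunit, read 1.76 and 1.43 in untreated inflamed, 1.74 and 1.82 in treated inflamed, 1.28 and 0.98 in untreated polypoid and 0.62 and 0.40 in treated polypoid samples. Its tissues did not overlap, and it differed by -0.87 ± 0.13 (limma, adjusted p = 0.0208). Uqcrc1, a core protein of the complex, read 1.55 and 2.82 in untreated inflamed, 1.45 and 1.63 in treated inflamed, 1.17 and 1.39 in untreated polypoid and 0.31 and 0.14 in treated polypoid samples. The tissues did not overlap here either, but untreated inflamed replicate 2 stood far above the rest, and the difference of -1.11 ± 0.28 missed the threshold (limma, adjusted p = 0.0762). A dimmer probe of Uqcrc1 gave -0.44. Uqcrc2, the second core protein, differed by -0.52 ± 0.14, Cyc1 (cytochrome c1) by -0.44 ± 0.12, Uqcr11 by -0.45 ± 0.18 and Uqcrfs1, the Rieske iron-sulphur protein, by -0.36 ± 0.21. Cytochrome c, the carrier to complex IV, did not share the shift by its brightest probe: Cycs read 0.29 and -0.0062 in untreated inflamed, 0.60 and 0.89 in treated inflamed, 0.87 and 0.70 in untreated polypoid and 0.74 and 0.12 in treated polypoid samples, and its other probes gave the opposite sign.

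**Figure D3:**
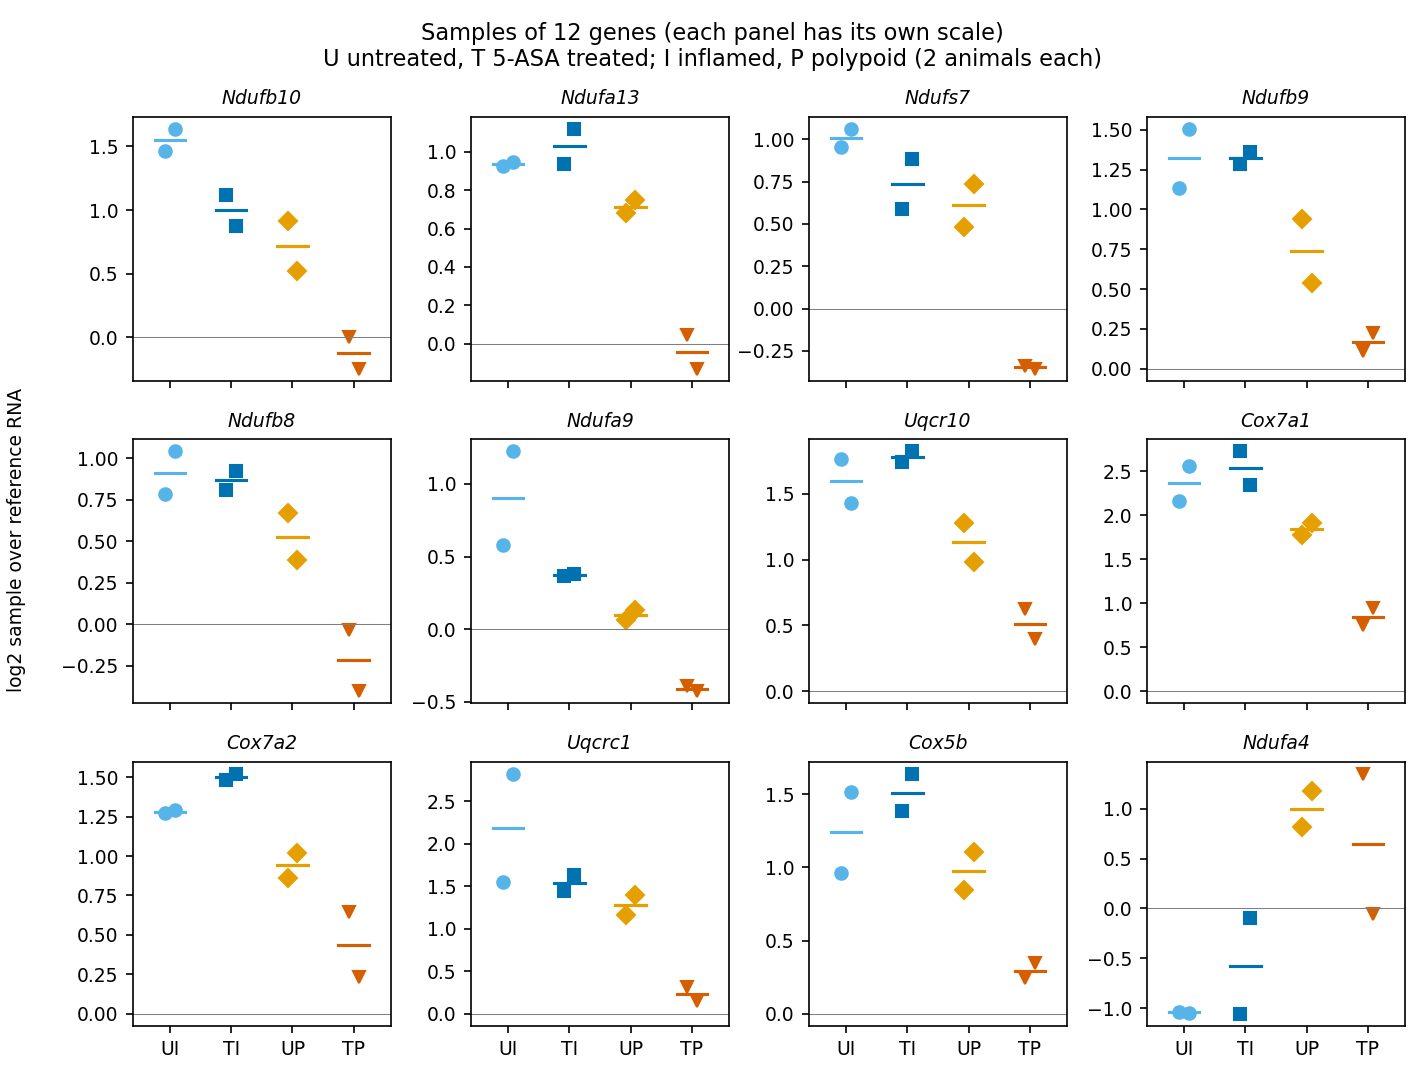
Level of 12 genes in each of the 8 samples (y axis, log2 of sample over reference RNA, each panel on its own scale; symbols, animals; bars, group means). In the 9 genes that passed and in Uqcrc1 and Cox5b the treated polypoid pair is lowest, and Ndufa4 shows the reverse order of the tissues.

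Complex IV, which reduces oxygen, held the largest fall that passed. Cox7a1, the heart and muscle form of subunit VIIa, read 2.16 and 2.56 in untreated inflamed, 2.73 and 2.34 in treated inflamed, 1.77 and 1.91 in untreated polypoid and 0.75 and 0.94 in treated polypoid samples. It differed by -1.11 ± 0.15 (limma, adjusted p = 0.0159), with no overlap. Cox7a2, the widely expressed form, read 1.27 and 1.29 in untreated inflamed, 1.48 and 1.52 in treated inflamed, 0.86 and 1.02 in untreated polypoid and 0.64 and 0.23 in treated polypoid samples, likewise with no overlap. It differed by -0.70 ± 0.12 (limma, adjusted p = 0.0294). Cox5b, a zinc-binding subunit, read 0.96 and 1.52 in untreated inflamed, 1.38 and 1.64 in treated inflamed, 0.84 and 1.1 in untreated polypoid and 0.24 and 0.35 in treated polypoid samples. Its difference of -0.74 ± 0.16 missed the threshold (limma, adjusted p = 0.051), and untreated polypoid replicate 2 overlapped untreated inflamed replicate 1.

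The remaining complex IV genes gave smaller or more scattered values. Cox4i1, the common form of subunit IV, had no overlap between tissues and differed by -0.92 ± 0.28, and Cox6a1 by -0.91 ± 0.27; Cox4i2, the form known from lung and hypoxic cells, stood at 0.035 ± 0.083 with a probe near background. Cox6a2, a muscle form, differed by -0.43 ± 0.11, also with no overlap. Cox8a differed by -0.53 ± 0.18, Cox7b by -0.51 ± 0.14 and Cox8b, known from heart and brown fat and dim here, by -0.70 ± 0.38. Cox5a (-0.33 ± 0.17) was saturated on 6 of 7 inflamed and 6 of 8 polypoid arrays. Of 8 smooth muscle markers 3 were lower in polypoid tissue (Lmod1, Tagln and Cnn1; median of the list -1.34). Their mean log2 level was 2.34 to 3.64 in untreated inflamed, 1.17 to 1.43 in treated inflamed, 0.59 to 1.0 in untreated polypoid and 0.54 to 0.92 in treated polypoid samples. Of 7 striated muscle markers Myl1 was higher (4.43) and the other 6 lay between -0.46 and -0.064. Whether these markers bear on the muscle forms Cox7a1 and Cox6a2 was not tested.

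In complex V no gene passed, though 16 of 17 had negative differences. Atp5j2, subunit f, read 1.12 and 1.30 in untreated inflamed, 0.95 and 0.95 in treated inflamed, 1.02 and 0.97 in untreated polypoid and 0.33 and 0.45 in treated polypoid samples. Its difference was -0.39 ± 0.092 (limma, adjusted p = 0.0661); a dimmer probe of the gene gave 0.059. Atp5o, the stalk protein known as OSCP, differed by -0.48 ± 0.12 with no overlap between tissues, and Atp5e, subunit epsilon, by -0.53 ± 0.13. Atp5a1 (alpha) differed by -0.18 ± 0.11, Atp5c1 (gamma) by -0.11 ± 0.22, Atp5d (delta) by -0.18 ± 0.23 and Atp5k (subunit e) by -0.30 ± 0.16. For the catalytic beta subunit Atp5b and for Atp5g3 no difference is given or drawn from the brightest probe. For each gene that probe was saturated on 7 of 7 inflamed and 7 of 8 polypoid arrays. Both genes are still counted by it among the 16, and in the other counts and medians of the respiratory chain genes. Their signs are therefore uncertain, and the dimmer probes of Atp5b, saturated on no array, gave 0.13 and 0.084.

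The tissue difference was next taken in each arm, with 2 animals against 2. In untreated mice the median over the 84 genes was -0.21 with 56 negative (66.7%, against 54.5% of all genes), and no gene passed, where 1 of all genes tested was lower (0.00469%) and 0.16% were higher (limma, adjusted p under 0.05); 12 were lower and 5 higher at an unadjusted p under 0.05 (14.3% and 5.95%, against 4.42% and 8.22% of all genes). In treated mice the median was -0.52 with 78 negative (92.9%, against 50.7% of all genes); 9 genes were lower (10.7%, against 1.02% of all genes) and 0 higher (against 2.04%): Cox5b, Cox7a1, Cox7a2, Ndufa13, Ndufb10, Ndufb8, Ndufb9, Ndufs7 and Uqcr10, of which 8 also passed in both arms together. At an unadjusted p under 0.05, 38 were lower and 0 higher (45.2% lower, against 8.15% lower and 11% higher). Cox7a1 was lower by 3.22-fold in treated mice (-1.69 ± 0.21; limma, adjusted p = 0.0217) and lay at -0.52 ± 0.21 in untreated mice (adjusted p = 0.379, limma). Both treated polypoid samples lay below both treated inflamed samples for 64 genes (76.2%, against 28.4% of all genes), and both untreated polypoid below both untreated inflamed samples for 29 (34.5%, against 22.4%). The untreated medians were -0.22 for complex I, 0.0016 for II, -0.31 for III, -0.27 for IV and -0.038 for V. The treated medians were -0.51, -0.82, -0.60, -0.55 and -0.43 in the same order. In untreated mice complexes II and V thus lay near 0, but the other complexes also came near 0 when 1 animal was left out. Complex I came to -0.084 without untreated polypoid replicate 2. Complexes III and IV came to -0.053 and -0.085 without untreated inflamed replicate 2. The untreated value of complex II ran from -0.46 to 0.38 when 1 animal was left out. The treated arm's count was 0 without any 1 of its 4 animals and 0 with the scan session as a term. The session fit left 1 residual degree of freedom here too. In the treated arm the scanner software's processed signals, the deposited value table and quantile normalization gave 4 genes each. Whether the arms differ is the drug comparison by tissue, which follows.

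The second question was what 5-ASA did in each tissue. In polypoid tissue 72 of the 84 genes (85.7%, against 48.1% of all genes) were lower in treated than in untreated mice, with a median of -0.31 log2 against 0.0093. In inflamed tissue 34 were lower (40.5%, against 52.8%) and the median was 0.073; it came to -0.026 without untreated inflamed replicate 1 and -0.0049 without treated inflamed replicate 2. No gene passed an adjusted p under 0.05 in either tissue, in both together or in the difference between tissues, nor did any of the 21303 genes tested (0%, limma). At an unadjusted p under 0.05, 21 of the 84 genes were lower and 0 higher in polypoid tissue (25% lower, against 3.21% of all genes lower and 4.56% higher), 3 lower and 6 higher in inflamed tissue (3.57% and 7.14%, against 1.92% and 2.46%), and 12 lower and 0 higher in both tissues together (14.3% lower, against 2.38% lower and 4% higher). A negative difference in both tissues together was found in 57 of the 84 genes (67.9%, against 52%).

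Both treated polypoid samples lay below both untreated polypoid samples for 47 genes (56%, against 19.2% of all genes) and above them for 2, Ndufc2 and Cox7b2 (2.38%, against 21.3%). In inflamed tissue the treated pair lay below the untreated pair for 12 genes (14.3%, against 14.5%) and above it for 22 (26.2%, against 14.9%). Treated and untreated polypoid samples shared 2 scan sessions, and within these the median difference was -0.40 in the second and -0.35 in the third (0.0086 and 0.015 over all genes). The treated sample was lower in both sessions for 58 genes (69%, against 27.1% of all genes) and higher in both for 2 (2.38%, against 30.7%). The 1 shared session of inflamed samples gave a median of 0.032. By complex, the polypoid medians were -0.33 for I, -0.30 for II, -0.41 for III, -0.22 for IV and -0.27 for V, and the inflamed medians 0.021, 0.52, 0.026, 0.15 and -0.029 in the same order. The inflamed value of complex II fell to 0.060 without untreated inflamed replicate 2, and its polypoid value came to -0.087, -0.52 and -0.20 without untreated polypoid 1, untreated polypoid 2 and treated polypoid 2. The other inflamed medians had no settled sign when 1 animal was left out. Complex I came to -0.0065 without treated inflamed 2. Complex III came to -0.17 without untreated inflamed 1 and -0.031 without treated inflamed 2. Complex IV came to -0.038 without untreated inflamed 1, and complex V to 0.029 and 0.025 without untreated inflamed 2 and treated inflamed 1.

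**Figure D4:**
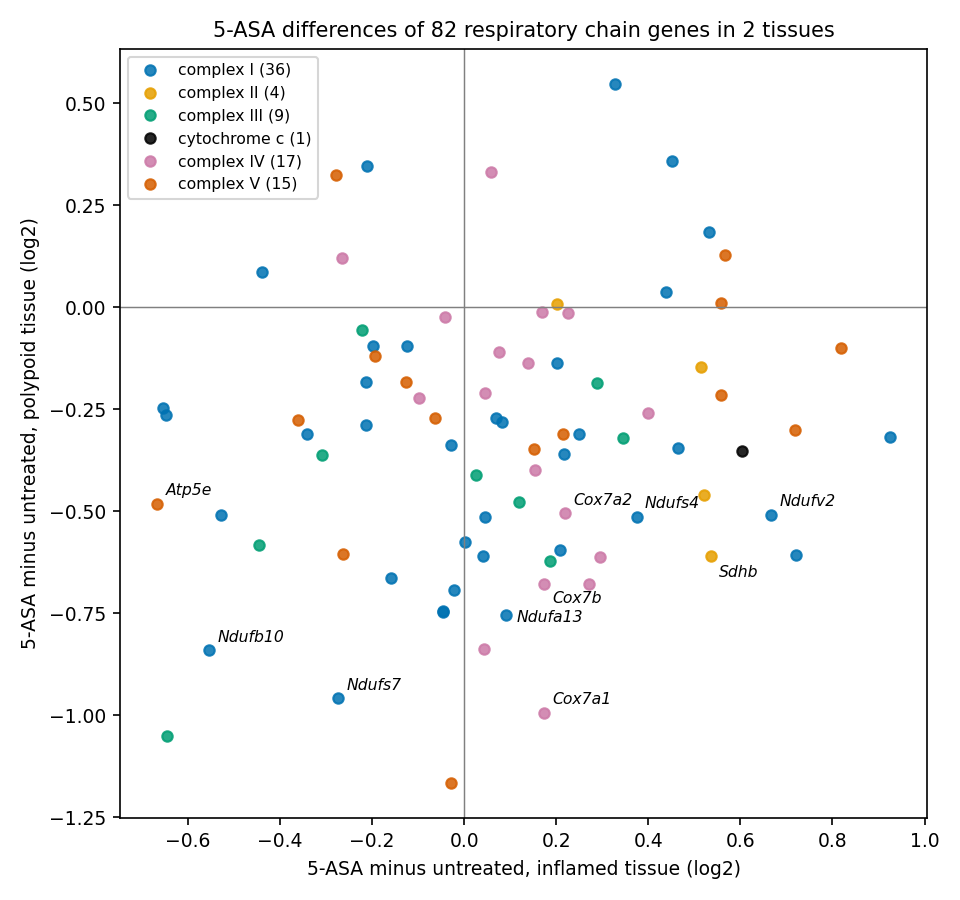
Difference of 5-ASA minus untreated mice for 82 of the 84 genes in inflamed (x axis, log2) and polypoid tissue (y axis, log2), coloured by complex with the number of genes in brackets. Most points lie below 0 on the y axis and to both sides of 0 on the x axis; the named genes are those of the text, and no difference passed an adjusted p under 0.05.

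Genes with the smallest p-values for 5-ASA in both tissues together came from complexes I and V. Ndufb10 lay lower in treated mice in both tissues, by -0.84 ± 0.19 in polypoid and -0.55 ± 0.19 in inflamed tissue (adjusted p = 0.765 in both together, limma). Ndufs7 showed -0.96 ± 0.16 and -0.27 ± 0.16, in the same order. Atp5j2 showed -0.60 ± 0.13 and -0.26 ± 0.13. Atp5e, with -0.48 ± 0.19 and -0.67 ± 0.19, was the only 1 of these 4 whose inflamed value was the larger. For each of the 4 genes both treated samples were below both untreated samples in both tissues.

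In the other complexes, Uqcrc1 showed -1.05 ± 0.39 in polypoid and -0.64 ± 0.39 in inflamed tissue, and Uqcr11 -0.58 ± 0.25 and -0.45 ± 0.25. Cox7a1 showed -0.99 ± 0.21 in polypoid tissue and 0.17 ± 0.21 in inflamed tissue, and Cox7b -0.68 ± 0.20 and 0.17 ± 0.20. The polypoid value of Cox7a1 had an adjusted p = 0.468 (limma). In complex II all 4 genes lay higher in treated than untreated inflamed tissue, from 0.20 ± 0.21 (Sdhc) to 0.54 ± 0.27 (Sdhb); in polypoid tissue Sdha lay at -0.15 ± 0.35 and Sdhb at -0.61 ± 0.27. Untreated inflamed replicate 2, which read low for this complex, enters that inflamed comparison. Cycs lay at 0.60 ± 0.25 in inflamed and -0.35 ± 0.25 in polypoid tissue.

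The difference of the 5-ASA effect between tissues, polypoid minus inflamed, had a median of -0.42 over the 84 genes (0.032 over all genes) and was negative for 66 (78.6%, against 45.7%). At an unadjusted p under 0.05 it was negative for 17 genes and positive for 0 (20.2% negative, against 3.01% negative and 2.96% positive over all genes). By complex the medians were -0.38 for I, -0.82 for II, -0.44 for III, -0.27 for IV and -0.34 for V. The value of complex II, over 4 genes, rests on the untreated inflamed animals: it was -1.24 with replicate 1 of that group left out and -0.36 with replicate 2 left out. With replicate 1 left out complex I came to -0.58 and complex III to -0.24. Complex IV ran to -0.52 without treated inflamed replicate 1, and stood at -0.42, -0.47 and -0.46 without untreated inflamed 2, untreated polypoid 1 and untreated polypoid 2. For 11 genes (13.1%, against 2.87% of all genes) the treated pair lay below the untreated pair in polypoid tissue and above it in inflamed tissue, and for 0 the reverse held (against 3.11%). Ndufa13 had the smallest p (-0.85 ± 0.19; adjusted p = 0.797, limma), so that a difference between the tissues was not established for any single gene. The 2 polypoid groups shared their scan sessions, whereas treated inflamed replicate 2 was scanned alone on a single array.

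Other mitochondrial genes were taken as lists. Over all genes tested, 1.97% passed as lower and 3.97% as higher in polypoid tissue. The shares that passed among assembly factors, mitochondrial ribosome and import genes lay near or below these. Genes named from those lists are therefore not read as results about the lists. Subunits and fatty acid oxidation enzymes stood at the low end in polypoid tissue, and mitochondrial ribosome and import genes did not. Of 20 enzymes of mitochondrial fatty acid oxidation, 17 had negative differences (median -0.46) and 5 passed as lower: Hadh (-0.91 ± 0.092), Acaa2 (-0.87 ± 0.093), Cpt1a (-0.77 ± 0.11), Acat1 and Echs1, with adjusted p from 0.00924 to 0.0439 (limma). Among the 3 positive ones, Acadl lay at 0.85 ± 0.19 and missed the threshold (limma, adjusted p = 0.057). Cpt1a joins long-chain fatty acids to carnitine for their entry into the mitochondrion, and Hadh and Acaa2 catalyse the last steps of a turn of beta-oxidation. Of 18 citric acid cycle enzymes 1 passed, citrate synthase (Cs, -0.64 ± 0.11), with a median of -0.13. Within the third scan session this median was 0.15, and that of the fatty acid oxidation enzymes was -0.34. Of 44 assembly factors of the chain, Surf1, which helps build complex IV, was lower (-0.71 ± 0.11) and Sdhaf1 and Ndufaf4, which help build complexes II and I, were higher (0.78 ± 0.16 and 0.70 ± 0.14), with a median of -0.034. Of 21 regulators of mitochondrial biogenesis, the coactivator Ppargc1b (-1.42 ± 0.21) and the deacetylase Sirt3 (-0.80 ± 0.16) were lower and the coactivator Pprc1 was higher (0.87 ± 0.16).

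The 78 genes of the mitochondrial ribosome had a median of 0.13 with 28 negative, and Mrpl22 passed as higher (0.91 ± 0.15). The 21 import genes had a median of 0.28 with 5 negative, and Timm22 was higher (0.64 ± 0.12). Within the third scan session the medians were 0.038 for the mitochondrial ribosome and 0.13 for import. Of 10 carriers and porins the porin Vdac3 was lower (-0.78 ± 0.10), and of 15 glycolytic genes Hk1, a hexokinase, was lower (-0.84 ± 0.16; list median -0.075). For 5-ASA in polypoid tissue, the medians were -0.33 for fatty acid oxidation (19 of 20 negative), -0.32 for the mitochondrial ribosome (68 of 78), -0.28 for import (16 of 21), -0.23 for the citric acid cycle (12 of 18) and -0.094 for the assembly factors (27 of 44), and no gene of any list passed.

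**Figure D5:**
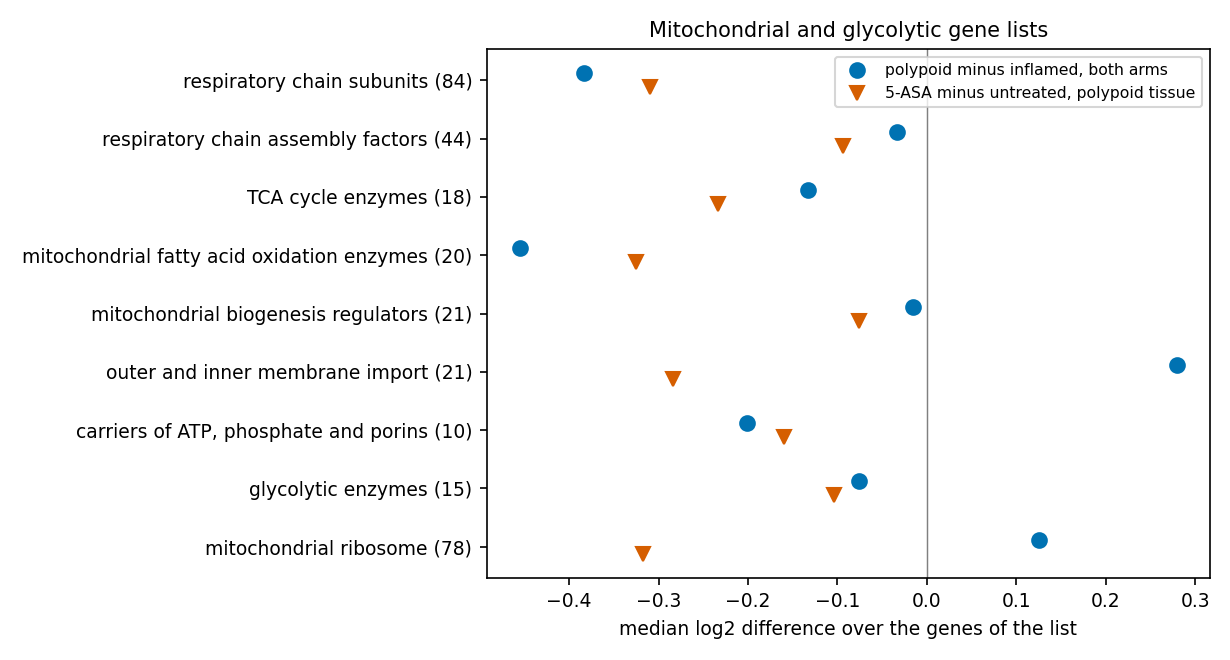
Median log2 difference (x axis) over the measured genes of each list (y axis, number of genes in brackets) for polypoid minus inflamed tissue in both arms (circles) and for 5-ASA minus untreated mice in polypoid tissue (triangles). The subunits and the fatty acid oxidation enzymes lie lowest for the tissues, import and ribosome lie above 0, and all 9 triangles lie below 0.

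Markers of some cell types also differed between the tissues, in both directions. Fibroblast, endothelium, macrophage and T cell markers had medians of 0.036, -0.0060, -0.087 and -0.25, with 0 passing in each list. Of 10 markers of mature colonocytes, 6 were lower in polypoid tissue (Aqp8, Car4, Slc26a3, Slc26a2, Cyp2c55 and Ceacam20), 1 was higher (Slc9a3) and the median was -1.74. Their mean log2 level was 3.38 to 3.58 in untreated inflamed, 3.54 to 4.11 in treated inflamed, 1.92 to 3.21 in untreated polypoid and 1.13 to 1.25 in treated polypoid samples, so that the groups stood in the order of the respiratory chain medians, treated polypoid lowest. Of 6 enteroendocrine markers 4 were lower (median -3.07; 4.05 to 4.72 in the inflamed and 0.032 to 3.62 in the polypoid samples). Of 7 neutrophil markers 5 were higher (median 1.28; 0.18 to 0.54 in the inflamed and 1.88 to 2.84 in the polypoid samples). Of 7 proliferation markers, 2 of the replication helicase, Mcm4 and Mcm6, were higher (median 0.74). The 8 epithelial markers had a median of -0.18 with none passing. They averaged 3.02 to 3.24 in untreated and 3.42 to 3.50 in treated inflamed samples. In polypoid samples they averaged 3.27 to 3.48 untreated and 2.77 to 3.01 treated. For 5-ASA in polypoid tissue all 8 had negative differences (median -0.34), and none passed. All 6 plasma and B cell markers had negative differences (median -1.35) and Mzb1 passed; they averaged 1.65 to 3.61 in the inflamed, 1.88 to 2.05 in untreated polypoid and 0.47 to 0.58 in treated polypoid samples. Of 8 goblet cell markers 7 had negative differences (median -0.78) and Fcgbp passed. They averaged 3.64 to 4.49 in the inflamed, 3.70 to 4.01 in untreated polypoid and 2.75 to 3.56 in treated polypoid samples. The part of these cells in the respiratory chain values was not tested, and in captured tissue fewer cells of a type and less RNA per cell cannot be told apart.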

How the data were processed

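Per the file headers, the deposited scanner output is Agilent Feature Extraction 9.1.1.1 intensity per spot and dye. A deposited value table gives log2 ratios to the reference RNA; set against the scanner values, its dye-swapped arrays had already been turned. How its background was treated was not given in the sources used here, and it served as an alternative.

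In R 4.3.3 with limma 3.58.1, spots were background-corrected by normexp (offset 50) and dye-normalized by loess, without controls. Each animal's value was fitted from its arrays with a term for dye. Of 41174 probes, a RefSeq table named 22864 by accession and 10230 by name or synonym, and 8080 kept the array's name. A probe was used where all arrays of some group held it well above background in the sample dye, and the brightest probe stood for a gene. Of 25 member genes with more than 1 such probe, the probes of 6 differed in sign for the tissue difference (Atp5b, whose brightest probe was saturated, Atp5j2, Atp5pb, Cycs, Ndufa12 and Ndufa3).

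Group means were compared over 21303 genes (limma, 4 residual and 2.14 prior degrees of freedom; 2 genes lacked a value in a sample), with Benjamini-Hochberg adjustment within each of 7 comparisons and a threshold of 0.05. The group fit for the pooled tissue comparison was tested on simulated log2 values per animal. Background correction, dye normalization, probe choice, scan session and the 5-ASA comparisons were not simulated. Genes described singly were those that passed anywhere, the 2 with the smallest p of each complex for tissue and for 5-ASA, and a list of catalytic, structural and tissue-specific subunits. One of that list is counted in every total but not reported singly here. From other mitochondrial lists, at most the 3 with the smallest p among those that passed for tissue were given values. The members and lists were chosen with earlier results of these data known. Alternatives changed the background, normalization, filter, probe choice, dyes, scan session, replicate block and animals.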

Additional observations from a re-analysis of the deposited data

Results flagged for a closer look

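For 11 of the 84 genes the 5-ASA difference pointed one way in polypoid and the other way in inflamed tissue: both treated polypoid samples lay below both untreated ones, and both treated inflamed samples lay above both untreated ones. This held for 2.87% of all genes tested. The test of the difference itself (polypoid minus inflamed, limma over all genes, log2 ± SE) passed for none of the 11, with adjusted p from 0.797 to 0.897. In complex I it gave -1.33 ± 0.33 for Ndufa10, -1.17 ± 0.28 for Ndufv2, -0.89 ± 0.27 for Ndufs4 and -0.34 ± 0.21 for Ndufb11. In complex II it gave -1.15 ± 0.38 for Sdhb. In complex IV it gave -0.72 ± 0.24 for Cox7a2, -0.85 ± 0.28 for Cox7b, -0.91 ± 0.44 for Cox7a2l and -0.66 ± 0.29 for Cox6b1. In complex V it gave -1.02 ± 0.47 for Atp5pb and -0.77 ± 0.29 for Atp5l. Ndufa10 lay at -0.61 in polypoid and 0.72 in inflamed tissue, Ndufv2 at -0.51 and 0.67, and Sdhb at -0.61 and 0.54. Treated inflamed replicate 2, with a single array in a scan session of its own, enters each of these inflamed values.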

How the results depend on the processing

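Of the 19 alternatives, each kept the median difference between tissues, with both arms pooled, negative over the respiratory chain genes it covered (-0.42 to -0.31). The same held in complexes I, II, III, IV and V, though complex II came to -0.069 at its smallest. The median for 5-ASA in polypoid tissue stayed between -0.34 and -0.28. The median for 5-ASA in inflamed tissue, -0.026 to 0.12, took both signs. The count of genes passing in both arms, 9, became 0 with the scan session as a term, in a fit with 1 residual degree of freedom. With probes saturated on no array, an alternative chosen after seeing the data, it was 5 of 65 genes tested. Those 5 were all of the 9 that had such a probe, since Cox7a2, Ndufa13, Ndufb10 and Ndufb9 had none. Leaving out any 1 animal changed which genes passed. In the treated arm the count of 9 became 4 with the processed signals, 4 with the deposited value table and 4 with quantile normalization, 0 with the scan session as a term and 5 with unsaturated probes, and 0 to 8 without 1 animal. The deposited table held a value for 63 of the 84 genes and 8 of the 9, all 8 lower in polypoid tissue. In no alternative did a member pass for 5-ASA. Of the genes, Atp5b, Atp5g3 and Cox5a were saturated on 10 or more of the 15 arrays, which limits their differences.

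With the replicate number as a block, 11 genes passed in both arms, including all 9. Deviations of same-numbered samples correlated at 0.034 to 0.36 over the 6 pairs of groups, positive for each pair, and the numbers were not taken to pair animals.

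Some signs turned, and the cause was not tested. For the tissues, Cox4i2 came to -0.0019 with the sample in Cy3 only, Cycs to -0.33 with unsaturated probes and -0.15 with the mean of probes, and Ndufs1 to 0.12, Ndufs4 to 0.10, Sdha to 0.25 and Atp5c1 to 0.45 with the session term. Leaving out 1 animal gave -0.17 to 0.0089 for Ndufv2, -0.14 to 0.0098 for Ndufs4, -0.36 to 0.0037 for Atp5d and -0.34 to 0.12 for Atp5c1. For 5-ASA in both tissues, Uqcrc2 came to 0.066 and Cox5a 0.14 with unsaturated probes. Ndufa4 came to -0.079, Sdhd -0.033, Uqcrfs1 -0.016, Cox6a2 0.0035 and Cox8b -0.028 in the deposited table. Cox5a came to 0.032 with the mean of probes. Cox8b came to -0.046 with offset 16. Ndufs1 came to -0.059 and Cox8b -0.018 with quantile normalization. Ndufa4 came to -0.18, Ndufs1 -0.19, Ndufs3 0.046, Ndufv2 -0.0097, Sdhc -0.015, Sdhd -0.18, Sdha -0.0025 and Cycs -0.022 with the session term. Cox8b came to -0.42 with the processed signals. Leaving out 1 animal gave -0.29 to 0.41 for Ndufa4, -0.14 to 0.21 for Ndufs1, -0.46 to 0.063 for Ndufs3, -0.012 to 0.17 for Ndufv2, -0.14 to 0.0051 for Ndufs4, -0.042 to 0.25 for Sdhc, -0.21 to 0.14 for Sdhb, -0.15 to 0.21 for Sdhd, -0.089 to 0.46 for Sdha, -0.13 to 0.23 for Uqcrfs1, -0.030 to 0.28 for Cycs, -0.091 to 0.058 for Cox6a2, -0.39 to 0.15 for Cox4i1, -0.21 to 0.049 for Cox5a, -0.41 to 0.41 for Cox8b and -0.18 to 0.087 for Atp5k.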

Other observations

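Atp5g1, which encodes the subunit c of ATP synthase and was chosen here after its values were seen, read 0.47 and 1.37 in the untreated polypoid and -0.14 and -0.35 in the treated polypoid samples. Cytochrome c (Cycs) was measured by 3 probes, which gave 0.16, -0.33 and -0.29 for polypoid over inflamed tissue. The dimmer probes of Atp5b, saturated on no array, gave 0.13 ± 0.27 and 0.084 ± 0.19 (SE) in that comparison.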
